A study of Mus musculus with 8 samples.

Results

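Smooth muscle contractile genes encode the proteins with which smooth muscle cells shorten and hold tension. A set of 10 such genes was read from the deposited counts by gene symbol: Acta2, Tagln, Cnn1, Cnn2, Myl9, Tpm2, Cald1, Actg2, Myh11 and Smtn. All 10 were among the 55487 genes of the table, and 8 of them passed the filter on low counts that left 13280 genes for testing. The genes were measured in mouse E14-Tg2a embryonic stem cells on day 6 of a serum-free differentiation towards precardiac mesoderm, which all cultures underwent. The parental line was wild type for Tbx1 (4 libraries), and line 4D of these cells was labelled Tbx1-/- (4 libraries). Tbx1 encodes a T-box transcription factor of the pharyngeal apparatus and cardiac outflow tract. The mutant libraries all come from 1 line, so that the genotype and other properties of that line cannot be told apart. Although the series title names minoxidil, no library is labelled as treated with it.

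In smooth muscle, actin filaments made of the Acta2 and Actg2 products slide along filaments of the Myh11 myosin when the regulatory light chain encoded by Myl9 is phosphorylated. Calponins, caldesmon and tropomyosin bind along the actin filament and regulate it, and transgelin and smoothelin are actin-associated proteins. Many of these genes are driven by serum response factor (SRF) with its coactivator myocardin, through a DNA element called the CArG box. Early cardiomyocytes also transcribe several of them, Acta2 among them, before smooth muscle forms.

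Promoter sequences are shown for the members in which a match to the CArG box described above was found. RefSeq promoters on GRCm38.p6 (250 bases before to 50 after the annotated start) were on hand for 7 of the 10 members, in 8 promoters, and not for Tagln, Actg2 and Myh11. A strict CArG box, CC and GG around 6 bases that are all A or T, was present in 2 of the 8 promoters, those of Myl9 and Cnn2, against 1.63% of 32851 mouse promoters of the same length. With up to 1 C or G allowed in the centre it was present in 3 of the 8, against 9.98% of all. The motif reads with the same ends on both strands, so each match counts once. Each line gives the 250 bases before the RefSeq start, 5′ to 3′ along the gene, with the matches in capitals.
Acta2, chr19:34255374-34255623, minus strand: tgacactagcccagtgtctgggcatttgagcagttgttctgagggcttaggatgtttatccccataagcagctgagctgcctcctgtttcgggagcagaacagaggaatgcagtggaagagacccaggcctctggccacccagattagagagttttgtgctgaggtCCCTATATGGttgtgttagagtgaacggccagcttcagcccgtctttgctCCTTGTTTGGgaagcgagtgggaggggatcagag
Myl9, chr2:156775214-156775463, plus strand: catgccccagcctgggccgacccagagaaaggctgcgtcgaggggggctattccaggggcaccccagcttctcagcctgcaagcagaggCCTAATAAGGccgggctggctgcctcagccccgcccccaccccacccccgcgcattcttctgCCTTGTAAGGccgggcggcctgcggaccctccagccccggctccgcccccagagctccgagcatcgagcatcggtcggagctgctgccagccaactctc
Cnn2, chr10:79988350-79988599, plus strand: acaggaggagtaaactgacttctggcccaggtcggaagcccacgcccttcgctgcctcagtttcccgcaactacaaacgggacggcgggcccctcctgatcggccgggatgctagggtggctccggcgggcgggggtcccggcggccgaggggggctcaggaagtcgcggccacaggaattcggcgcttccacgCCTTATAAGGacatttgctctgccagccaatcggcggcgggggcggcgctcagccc
In Acta2 both matches hold 1 C or G in the centre, CCCTATATGG with its first base at -84 from the start and CCTTGTTTGG at -34. The GENCODE gene coordinates used below extend Acta2 to 34255590, so that by them both matches lie within the gene. In Myl9 the strict match CCTAATAAGG lies at -161 and the relaxed match CCTTGTAAGG at -99. Cnn2 holds CCTTATAAGG at -56. The promoters of Cnn1, Tpm2, Cald1 and Smtn held none of these letters in this window. A match is a description of the sequence and was not tested for function.

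Total counts per library ranged from 3803561 to 6293907. The edgeR quasi-likelihood test called 188 of 13280 genes at an adjusted p under 0.05. Tbx1 itself (chromosome 16, 18580979 to 18590671, GRCm38, minus strand) had 39, 65, 38 and 22 counts in parental libraries 1 to 4 and 3, 0, 1 and 0 counts in the mutant line, and was called lower (edgeR adjusted p 0.00432). Mutant library 4 stood apart, since it had the lowest total and the lowest level of all libraries for 3453 of the tested genes. The 4 libraries of a line are biological replicates per the labels, which do not say how the cultures were separated, so the p-values measure the spread between these cultures.

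None of the 8 tested contractile genes passed the threshold between the lines (0 of 8, edgeR quasi-likelihood test, Benjamini-Hochberg adjustment over all genes), where 1.42% of all genes were called, 0.745% higher and 0.67% lower. For each of the 8 the parental and mutant ranges overlapped, whereas 7.52% of all genes had separate ranges. An unadjusted edgeR p under 0.05 was found for 1 of the 8, Myl9, against 1584 of all 13280 tested genes. DESeq2 and limma-voom also called 0 of the 8. All 8 log2 fold changes lay below 0, with a median of -0.31, where 49.8% of all tested genes lay below 0 and their median was 0.0010. These signs are not independent of each other or of single cultures, as 4 of them turned when parental library 1 was left out.

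**Figure D1:**
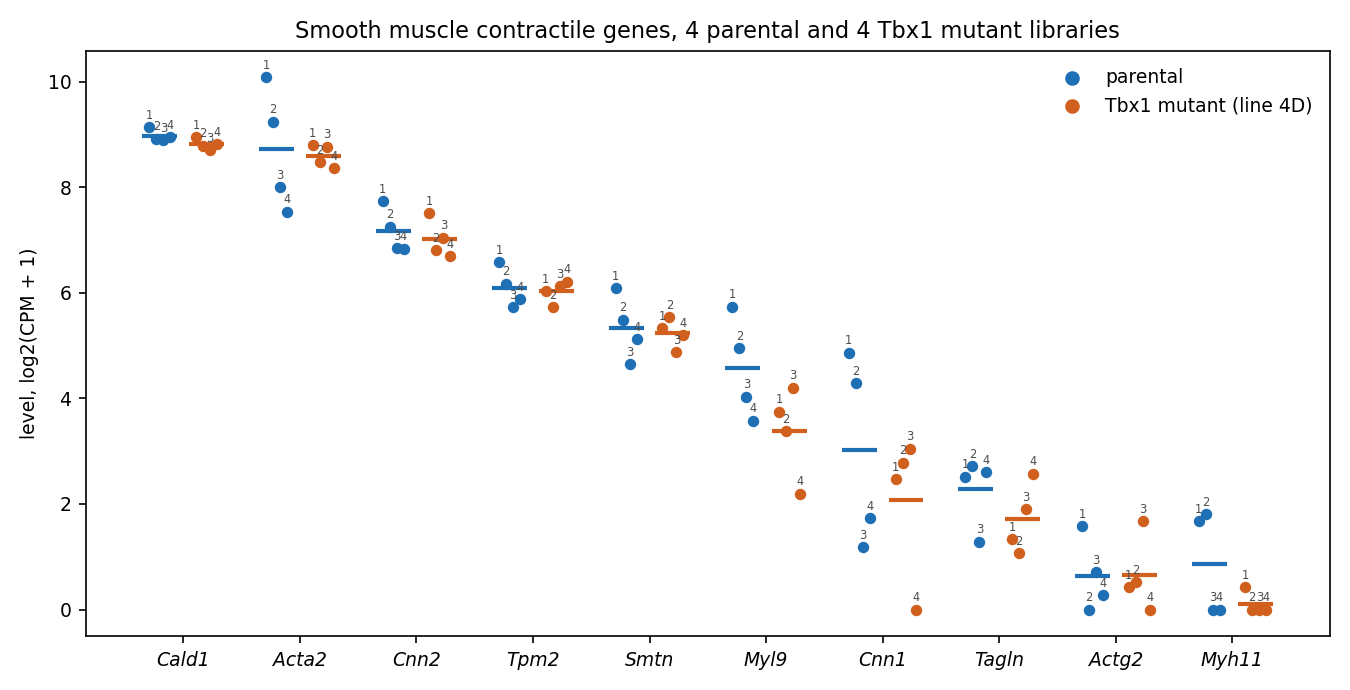
Level of each contractile gene, as log2(CPM + 1), in the 4 parental (blue) and 4 Tbx1 mutant (orange) libraries. Numbers beside the points are library numbers and bars are means on that scale. Points of the lines overlap for all 10 genes, and parental library 1 is the highest library for 7 of them.

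Acta2, the smooth muscle alpha-actin (ENSMUSG00000035783.9, chromosome 19, 34241090 to 34255590, minus strand), showed the widest spread in absolute level. Its level was 1080.3, 602, 256 and 185 CPM (counts per 1000000, scaled by trimmed means) in parental libraries 1 to 4. Mutant libraries 1 to 4 had 444, 353, 434 and 327 CPM. The mutant values thus all lay inside the parental range, with the extremes of both ends in parental cultures. Parental cultures spanned 5.85-fold and mutant cultures 1.36-fold. The means were 531 ± 409 CPM in the parental line and 390 ± 58.2 CPM in the mutant line (SD, n = 4), and the log2 fold change came to -0.45 ± 0.35 (SE) with a 95% interval of -1.17 to 0.28 and an edgeR adjusted p of 0.682. Without parental library 1 the log2 fold change was 0.16, so that the sign of the Acta2 difference rests on that culture.

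The spread of Acta2 between parental cultures was among the widest of all well-expressed genes. Over the 9026 tested genes with a mean of at least 10 CPM, its SD of log2 CPM in the parental line, 1.16, was higher than that of 99.8% of genes, against a median of 0.22. In the mutant line the SD of Acta2 was 0.22, close to the median of 0.28. Myl9 stood at 0.99 in the parental line, above 99.6% of genes, and at 0.93 in the mutant line, or 0.44 without mutant library 4. Smtn stood at 0.62 in the parental line, above 95.8%. Cald1 was at the other end with an SD of 0.11, wider than 14.4% of genes. Cnn2 and Tpm2 had 0.43 and 0.38, above 85.5% and 79.97% of genes. Cnn1, Tagln, Actg2 and Myh11 were too low in mean level for this comparison.

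Actg2, the gamma-actin of enteric smooth muscle (chromosome 6, 83512905 to 83536265, minus strand), was close to absent. It had 11, 0, 4 and 1 counts in parental libraries 1 to 4 and 2, 2, 12 and 0 counts in the mutant line. Only parental libraries 1 and 3 and mutant library 3 had more than 3 counts, a floor equal to 0.479 to 0.825 CPM depending on the library. Myh11, the smooth muscle myosin heavy chain and a marker of mature smooth muscle (chromosome 16, 14194535 to 14291372, minus strand), had 12, 14, 0 and 0 counts in the parental line. In mutant libraries 1 to 4 it had 2, 0, 0 and 0 counts. Both genes fell below the filter on low counts and were not tested, and a difference between the lines was not detectable at this depth.

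Myl9, the myosin regulatory light chain of smooth muscle (ENSMUSG00000067818.6, chromosome 2, 156775420 to 156781658, plus strand), had the smallest adjusted p of the set. The promoter printed above belongs to this gene. Its levels were 52.2, 30.0, 15.3 and 11.0 CPM in parental libraries 1 to 4 and 12.4, 9.37, 17.4 and 3.57 CPM in mutant libraries 1 to 4. Parental libraries 1 and 2 were above all mutant libraries, while parental libraries 3 and 4 lay among them. The log2 fold change came to -1.32 ± 0.45 (SE) with a 95% interval of -2.25 to -0.38 that is not adjusted for the number of genes, and the edgeR adjusted p was 0.194. Without parental library 1 the log2 fold change was -0.79 with an adjusted p of 0.573, and without parental library 4 it was -1.58 with an adjusted p of 0.106.

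Calponin genes differed from each other in level and spread. Cnn1, the calponin of differentiated smooth muscle (chromosome 9, 22099216 to 22109630, plus strand), had 155, 103, 8 and 11 counts in parental libraries 1 to 4, or 28.2, 18.5, 1.28 and 2.32 CPM. In mutant libraries 1 to 4 it had 27, 27, 40 and 0 counts, or 4.54, 5.88, 7.27 and 0 CPM. Mutant cultures 1 to 3 therefore lay between the 2 high and the 2 low parental cultures, and the 0 in mutant library 4 allows up to 0.825 CPM. Its log2 fold change of -1.47 ± 0.81 (SE) had a 95% interval of -3.17 to 0.22, with an edgeR adjusted p of 0.512. This fitted value includes a library at 0 counts, and it was -0.72 without parental library 1 and -1.10 without mutant library 4. Cnn2, a calponin also made outside muscle (chromosome 10, 79988584 to 79996062, plus strand), was more abundant, at 212, 151, 114 and 113 CPM in the parental line and 180, 111, 131 and 102 CPM in the mutant line. Its log2 fold change came to -0.17 ± 0.20 (SE) at an edgeR adjusted p of 0.805, and 0.06 without parental library 1.

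For the remaining thin-filament genes, caldesmon and beta-tropomyosin, the intervals of the difference were narrow and included 0. Cald1, which encodes caldesmon (ENSMUSG00000029761.16, chromosome 6, 34598500 to 34775473, plus strand), had 561, 483, 475 and 491 CPM in parental libraries 1 to 4 and 491, 440.2, 416 and 448 CPM in mutant libraries 1 to 4. Its fold range was 1.18 within each line, the narrowest of the set among genes above the floor in all libraries. The 95% interval of its log2 fold change, -0.37 to 0.04 (edgeR adjusted p 0.553), limits any rise in the mutant line to 1.03-fold and any fall to 0.776 of the parental level. A 3′-end count cannot separate the smooth muscle form of caldesmon from the form made in other cells. Tpm2, beta-tropomyosin (chromosome 4, 43514711 to 43523765, minus strand), had 94.4, 71.0, 52.2 and 57.7 CPM in the parental line and 64.3, 52.1, 68.8 and 73.1 CPM in the mutant line. Parental library 1 was the high value and the other 7 lay together. Its log2 fold change came to -0.09 ± 0.18 (SE) with a 95% interval of -0.48 to 0.29 (edgeR adjusted p 0.901), and it was 0.09 without parental library 1.

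Transgelin and smoothelin are used as markers of smooth muscle, and they differed in their pattern here. Tagln (ENSMUSG00000032085.5, chromosome 9, 45929619 to 45936058, minus strand) was low in every culture, with 26, 31, 9 and 24 counts in parental libraries 1 to 4 and 9, 5, 15 and 18 counts in mutant libraries 1 to 4. These are 4.73, 5.56, 1.44 and 5.06 CPM against 1.51, 1.09, 2.72 and 4.95 CPM. Parental culture 4, the lowest in Acta2, had 24 counts of Tagln, and culture 1, the highest in Acta2, had 26. Counts this low carry a large counting error. The log2 fold change of -0.72 ± 0.71 (SE) had a wide 95% interval of -2.21 to 0.77 and an edgeR adjusted p of 0.759, and without mutant library 4 it was -1.22 with an edgeR adjusted p of 0.576. The annotated end of Tagln overlaps Pcsk7 on the other strand, which had 21 to 54 counts, and a transcript within Tagln on that strand, Gm48529, had 0 to 8. Smtn (chromosome 11, 3517523 to 3540612, minus strand) had 67.1, 44.0, 24.1 and 33.9 CPM in the parental line and 39.3, 45.5, 28.3 and 35.7 CPM in the mutant line, which overlapped throughout. Its log2 fold change came to -0.18 ± 0.26 (SE) with a 95% interval of -0.72 to 0.36 (edgeR adjusted p 0.842), and 0.13 without parental library 1.

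**Figure D2:**
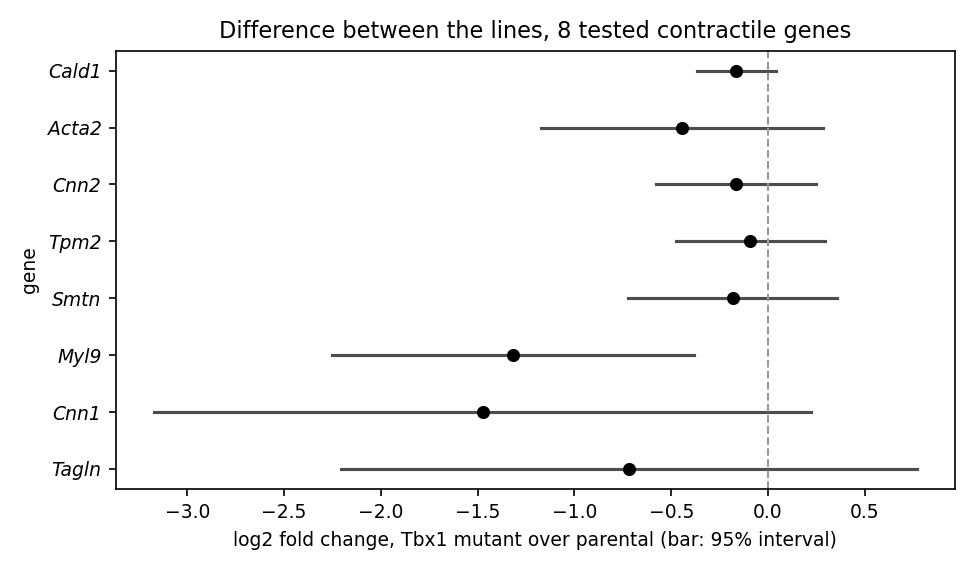
Log2 fold change of the mutant over the parental line for the 8 tested contractile genes, with 95% intervals that are not adjusted for the number of genes. The interval of Myl9 alone lies wholly below 0 (-2.25 to -0.38), and its edgeR adjusted p over all genes is 0.194.

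Levels of different genes are set side by side here. QuantSeq sequences 1 end per transcript, so that the CPM of a gene does not grow with its length. It still depends on the annotated end and on how reads of near-identical copies, as of actins, were counted. The order of the genes is therefore uncertain. Acta2 and Cald1 led the parental line with means of 531 ± 409 and 503 ± 39.6 CPM (SD, n = 4), and their ranges overlapped. In the mutant line Cald1 (449 ± 31.3 CPM) and Acta2 (390 ± 58.2 CPM) also overlapped. Cnn2 followed at 147 ± 46.4 and 131 ± 34.9 CPM, and Tpm2 at 68.8 ± 18.8 and 64.6 ± 9.08 CPM in parental and mutant libraries, with no overlap between Cnn2 and Tpm2 in either line. Smtn (42.3 ± 18.4 CPM) and Myl9 (27.1 ± 18.6 CPM) overlapped in the parental line but not in the mutant line, where they had 37.2 ± 7.18 and 10.7 ± 5.80 CPM. Acta2 and Cnn2 overlapped in the parental line alone, and Myl9 and Cnn1 in both lines. These overlaps are of ranges over cultures. Within every parental library Acta2 was above Cnn2 and Smtn was above Myl9, and Myl9 was above Cnn1 in every library of both lines. Cnn1 and Tagln were lowest of the tested genes, and they overlapped with each other in both lines. Actg2 and Myh11 were at the bottom with at most 2.18 and 2.51 CPM in any library.

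The summed level of all 10 genes was 2104, 1408, 939 and 899 CPM in parental libraries 1 to 4 and 1238, 1018, 1107 and 995 CPM in mutant libraries 1 to 4. Acta2 made up from 20.5% of that sum in parental library 4 to 51.4% in parental library 1, and 32.9% to 39.2% in the mutant line. The share of Cald1 went from 26.7% in parental library 1 to 54.6% in parental library 4. Shares of 1 sum depend on each other, and the level of Cald1 itself was 561 and 491 CPM in these libraries. In the mutant line Cald1 took 37.6% to 45.0%, a range inside the parental one. Whether the spread differed between the lines was not tested. In RNA from whole cultures, fewer cells of a type and less RNA per cell cannot be told apart.

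Cardiomyocyte genes were compared as markers of another cell type that makes these RNAs. The list of 20 genes included troponins, cardiac myosins, Ttn (titin) and Actc1 (cardiac actin). None of its 17 tested genes was called, against 1.42% of all tested genes. All 17 log2 fold changes lay below 0, with a median of -1.18. An unadjusted edgeR p under 0.05 was found for 8 of the 17, against 1584 of all 13280 tested genes. Of the 17 genes 15 were highest in parental library 1. The contractile set was alike at this end, as 7 of its 8 tested genes were highest in parental library 1, against 12.3% of all tested genes. It was less alike at the low end. Lowest in mutant library 4 were 14 of the 17 cardiomyocyte genes but 3 of the 8 contractile genes, against 3453 of all 13280 tested genes. The summed level of the list was 4001, 2153, 975 and 685 CPM in parental libraries 1 to 4. The mutant libraries, in the same numbering, had 944, 886, 1091 and 147 CPM, so that mutant library 4 was lowest and parental library 1 highest. Of the 20 genes, Nppb alone was at 0 counts in all 8 libraries. Ttn, Myl7 and Tnnt2, the 3 most abundant of the list, had edgeR log2 fold changes of -1.53 ± 0.50, -1.65 ± 0.56 and -1.25 ± 0.39 (SE) with adjusted p of 0.173, 0.199 and 0.147. Without parental library 1 these log2 fold changes were -0.96, -0.94 and -0.79, and without parental library 4 Tnnt2 was called (adjusted p 0.0454). The part of these cells in the differences between cultures was not tested.

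Over the 8 libraries Myl9 and Cnn1 were higher where the cardiomyocyte list was higher. The relation was computed after the data were seen, between log2 CPM of each of the 8 tested genes (prior count 2) and the log2 of the list's summed CPM. P-values come from two-sided exact permutation tests and were adjusted over the 8 relations. For Myl9 Pearson's r was 0.975 (exact p = 0.000273, adjusted 0.00218) and Spearman's coefficient 0.976 (exact p = 0.000397, adjusted 0.00318). Without the 2 libraries farthest from the median of the list, parental library 1 and mutant library 4, r for Myl9 was 0.922. Within each line, which is too small for a correlation, the order of the libraries by Myl9 was the order by the cardiomyocyte list. The permutations did not keep the lines apart. For Cnn1 r was 0.941 (exact permutation p = 0.000868, adjusted 0.00347) and Spearman's coefficient 0.833 (exact permutation p = 0.0154, adjusted 0.0411), with r = 0.782 without the same libraries. Its order within a line differed from that of the list for parental libraries 3 and 4 and for mutant libraries 1 and 2.

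For the remaining members no r passed the threshold after adjustment, and the differences between correlations were not tested. Cnn2 had r = 0.757 (exact permutation p = 0.0235, adjusted 0.0627) and Spearman's coefficient = 0.833 (exact permutation p = 0.0154, adjusted 0.0411), but r fell to 0.45 without the 2 farthest libraries, so that this relation rests on them. Acta2 had r = 0.668 (exact permutation p = 0.0726, adjusted 0.145) and Spearman's coefficient = 0.762 (exact permutation p = 0.0368, adjusted 0.0736), with r = 0.813 without those libraries. In mutant library 4 the cardiac genes Ttn, Actc1 and Myl7 were at 22.8, 5.77 and 8.25 CPM, Cnn1 at 0, Myl9 at 3.57 CPM and Acta2 at 327 CPM. Parental cultures 3 and 4 had 256 and 185 CPM of Acta2 and 300.3 and 247 CPM of Ttn. Tpm2, Cald1 and Smtn had r of 0.336, 0.559 and 0.49 with exact permutation p of 0.414, 0.138 and 0.201 (adjusted 0.473, 0.221 and 0.268). Their Spearman's coefficients were 0.381, 0.238 and 0.286 with exact permutation p of 0.36, 0.582 and 0.501 (adjusted 0.576, 0.665 and 0.665), and r was 0.647, 0.0138 and 0.286 without the 2 farthest libraries. Tagln had r = 0.0226 (exact permutation p = 0.961, adjusted 0.961) and Spearman's coefficient = 0.0714 (exact permutation p = 0.882, adjusted 0.882), with r = 0.386 without them.

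**Figure D3:**
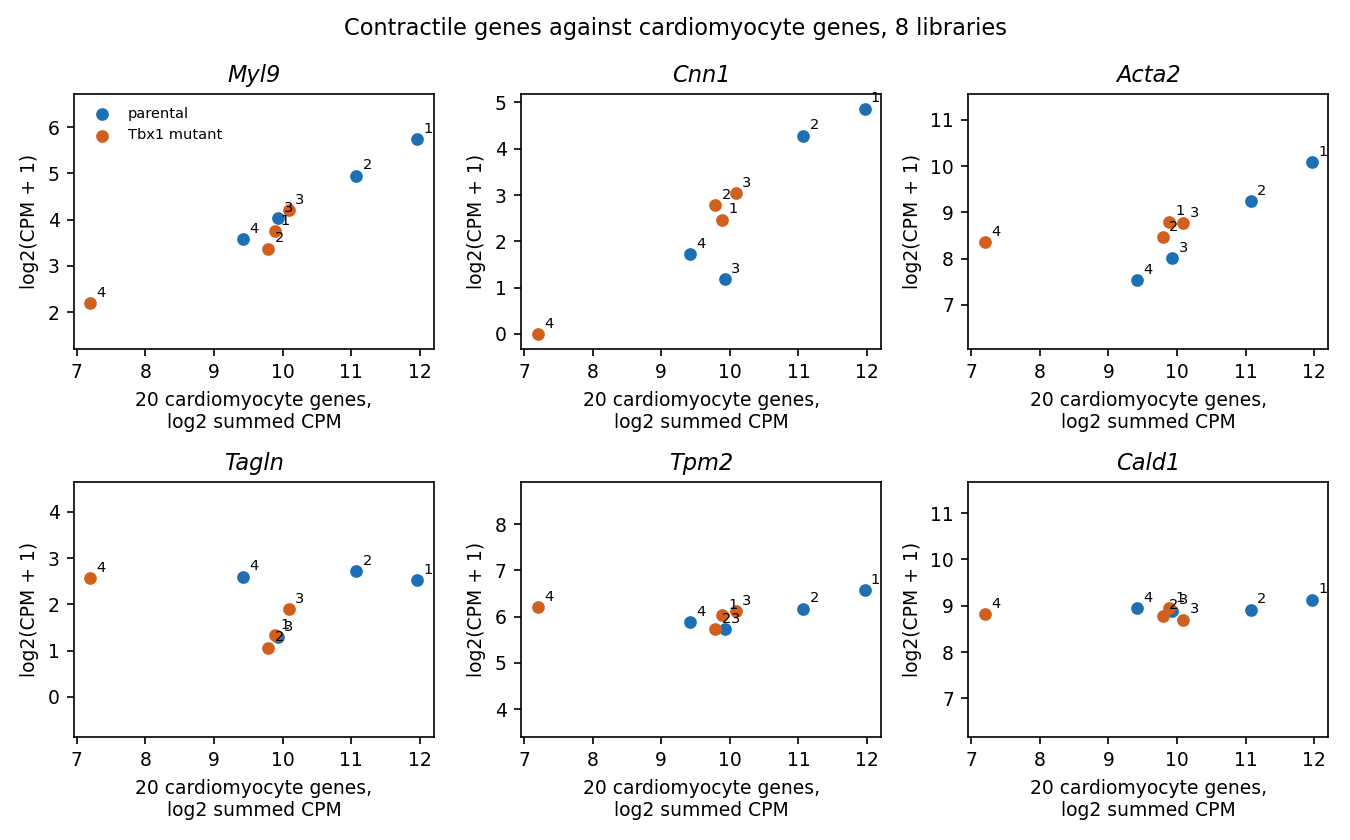
Level of 6 contractile genes, as log2(CPM + 1), against the log2 summed CPM of 20 cardiomyocyte genes, with 1 point per library numbered within its line (blue parental, orange Tbx1 mutant) and vertical axes of equal length. Pearson r over the 8 libraries is 0.975 for Myl9, 0.941 for Cnn1, 0.559 for Cald1 and 0.0226 for Tagln, and mutant library 4 is the point at the far left.

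Other cell types were examined by marker lists of 10 to 14 genes, to be read against the 1.42% of all tested genes that were called. The list of mature smooth muscle, which shares Cnn1, Smtn, Actg2 and Myh11 with the set, summed to 90.0 to 280.4 CPM in the parental line and 62.4 to 126 CPM in the mutant line, with 0 of 7 tested genes called and no gene at 0 throughout. Its most abundant genes were Smtn, Des and Myocd. Synpo2, Cnn1 and Itga8 reached at most 35.1, 28.2 and 17.7 CPM in any library. Lmod1 and Kcnmb1 reached at most 8.14 and 7.46 CPM, and Myh11 and Actg2 at most 2.51 and 2.18 CPM. Pericyte genes, led by Rgs5, Notch3 and Pdgfrb, summed to 162 to 194 CPM and 160.2 to 203 CPM, with 0 of 6 tested genes called and Higd1b at 0 in all libraries. Skeletal muscle genes summed to 23.8 to 78.7 and 11.5 to 33.3 CPM, led by Des, Mylpf and Tnnt3, with 0 of 3 tested genes called and Myod1, Myf6 and Myh3 at 0 throughout. Most of each sum was Des, at 16.2 to 62.0 CPM in the parental line and 11.5 to 25.4 CPM in the mutant line. Des is also in the list of mature smooth muscle. The myogenic factors Myf5 and Myog had 0 to 7 counts in each library, and 7 of the 10 skeletal muscle genes exceeded the floor in at least 1 library. Endothelial genes, led by Kdr, Pecam1 and Cdh5, summed to 490.3 to 821 and 613 to 1192 CPM, with 0 of 10 called. Fibroblast and mesenchyme genes, led by Vim, Col1a2 and Fn1, summed to 2307 to 3264 CPM in the parental line and 3679 to 5050.3 CPM in the mutant line, without overlap, and 4 of 11 were called, all higher (Col1a2, Col3a1, Postn and Twist1). Endoderm and epithelial genes, led by Krt8, Krt18 and Ttr, had 2 of 9 called, both lower (Foxa2 and Krt18), and sums of 272 to 473 and 258 to 309 CPM. Genes of cardiac mesoderm, the labelled fate, led by Hand1, Hand2 and Gata6, summed to 1490.1 to 1894 and 1518 to 1800.4 CPM with all 14 tested, of which Gata6 was called higher and Fgf10 lower. The part of these cell types in the levels of the contractile genes was not tested.

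Shares within gene families do not depend on the scaling between libraries, and none of 6 passed the threshold between the lines in a two-sided exact permutation test. The smallest possible p, 0.0286, is before adjustment over the 6 families. A single family at that value would not have passed after adjustment, so the test cannot decide whether 1 share differed. Acta2 made up 9.16%, 6.03%, 2.91% and 2.01% of counts from 6 actin genes in parental libraries 1 to 4, and in the mutant line 4.65%, 3.85%, 4.90% and 3.56%. The exact Clopper-Pearson 95% interval was 8.94 to 9.39% in parental library 1 and 1.88 to 2.14% in parental library 4, so that the gap between these cultures is far beyond counting error. Means were 5.03 ± 3.25% and 4.24 ± 0.638% (SD, n = 4; exact permutation p = 0.714, adjusted over the families 0.714). The denominator is mostly Actb, at 8243 to 10210 CPM. Actg1 had only 5.38 to 25.3 CPM. Actins have near-identical copies in the genome, among which the counting could split reads, so these shares are uncertain.

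Myl9 made up 10.1%, 6.94%, 3.95% and 3.55% of counts from the 3 regulatory light chain genes in parental libraries 1 to 4, with Myl12a as the main partner. In mutant libraries 1 to 4 its share was 3.07%, 2.47%, 4.19% and 0.738%. The means were 6.14 ± 3.06% against 2.62 ± 1.44% (SD, n = 4; exact permutation p = 0.0857, adjusted 0.514), and the difference of -3.53 percentage points became -2.20 without parental library 1. Cnn1 made up 5.92%, 4.34%, 0.299% and 0.687% of the calponin counts in parental libraries and 0.953%, 1.495%, 1.48% and 0% in mutant libraries (exact permutation p = 0.343, adjusted 0.515, n = 4), a difference of -1.83 percentage points that became -0.79 without parental library 1. The 0% in mutant library 4 has an upper 95% bound of 0.180%. Tpm2 held 4.21 to 5.13% of tropomyosin counts in parental and 4.19 to 6.38% in mutant libraries (exact permutation p = 0.4, adjusted 0.515, n = 4). Tagln held 1.03 to 3.74% of the counts of 3 transgelin genes in parental and 0.598 to 2.56% in mutant libraries (exact permutation p = 0.2, adjusted 0.515, n = 4), with Tagln2 as the main gene. Myh11 held at most 0.318% of the counts of the non-sarcomeric myosin heavy chains in any library (exact permutation p = 0.429, adjusted 0.515, n = 4), where Myh10 and Myh9 held nearly all.

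**Figure D4:**
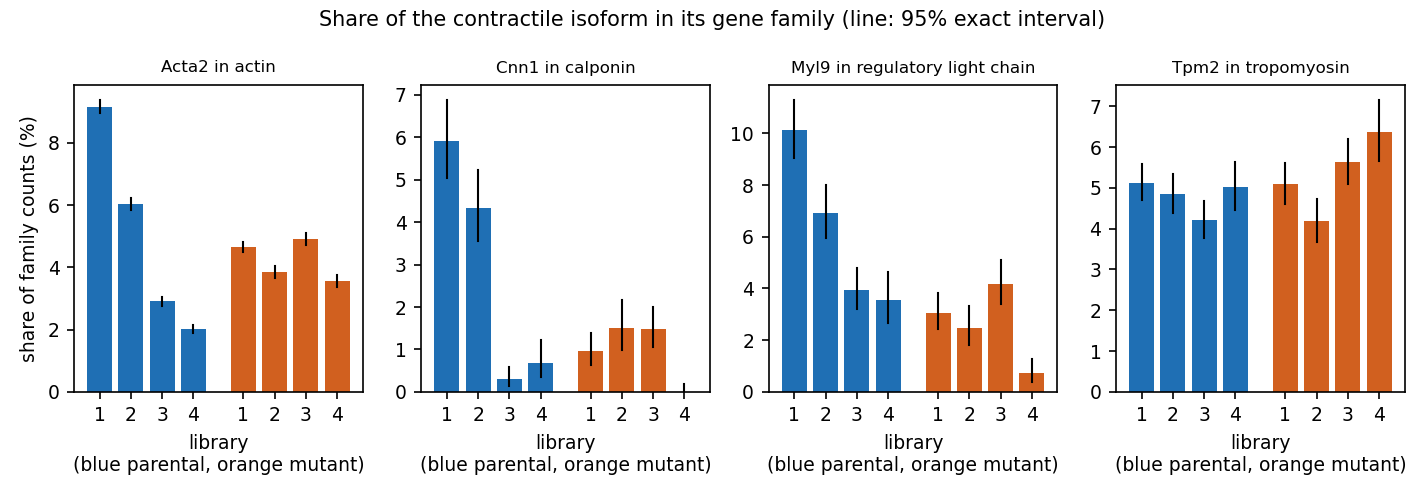
Share of the counts of a gene family held by Acta2, Cnn1, Myl9 and Tpm2 in each library, as bars from 0 with 95% exact Clopper-Pearson intervals for counting error. In the first 3 panels parental libraries 1 and 2 stand above parental libraries 3 and 4, as from 9.16% to 2.01% for Acta2.

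The wider machinery of contraction was examined in a list of 41 genes for myosin phosphorylation, focal adhesion and filament proteins. Of 38 tested genes 1 was called, lower in the mutant line, and 0 were called higher. Over all tested genes 1.42% were called, 0.67% lower and 0.745% higher. The list had 19 log2 fold changes on either side of 0 and a median of -0.02. The called gene was Csrp2, a LIM-domain protein of developing smooth muscle (chromosome 10, 110919789 to 110939622, plus strand). It had 569.5, 476, 491 and 434 CPM in parental libraries 1 to 4 and 387, 361, 348 and 349.7 CPM in mutant libraries 1 to 4, which did not overlap. Its log2 fold change came to -0.45 ± 0.10 (SE) at an edgeR adjusted p of 0.033, kept on leaving out parental library 4 or mutant library 1 and lost on leaving out any other (adjusted p up to 0.113). Tpm1 and Myh10 were the other abundant genes, with log2 fold changes of -0.55 ± 0.15 and -0.04 ± 0.09 (SE) and edgeR adjusted p of 0.0892 and 0.925. Tpm1 had -0.345 without parental library 1 (adjusted p 0.274) and was called without parental library 4 (adjusted p 0.0331).

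Regulators of the contractile genes were represented by 20 genes around SRF, the myocardin family and TGF-beta, all of them tested. Of these 1 was called lower and 0 were called higher, against 0.67% and 0.745% of all tested genes. The median log2 fold change of the list was -0.11. Myocd, which encodes myocardin (chromosome 11, 65176561 to 65269989, minus strand), had 73.5, 46.8, 28.9 and 16.4 CPM in parental libraries 1 to 4 and 12.9, 15.3, 16.9 and 1.92 CPM in mutant libraries 1 to 4. The lines overlapped by parental library 4 and mutant library 3. Its log2 fold change came to -1.79 ± 0.45 (SE) at an edgeR adjusted p of 0.057. The value passed the threshold without mutant library 4 (adjusted p 0.0448) and without parental library 4 (0.0238), and missed it in the other 6 such fits, at up to 0.232 without parental library 1. Srf itself was low, with 7 to 36 counts. Tgfb1 (chromosome 7, 25687002 to 25705077, plus strand), a growth factor that induces contractile genes, was the called gene, at 32.2, 29.4, 15.3 and 21.1 CPM in the parental line and 12.1, 10.5, 9.99 and 7.15 CPM in the mutant line. It had a log2 fold change of -1.29 ± 0.29 (SE) at an edgeR adjusted p of 0.033, kept on leaving out parental library 3 or mutant library 1 and lost on leaving out any other (up to 0.153). The most abundant genes of this list, Tgfb2, Tead1 and Yap1, had log2 fold changes of -0.29 ± 0.09, -0.21 ± 0.10 and -0.11 ± 0.12 (SE), none of them called (edgeR adjusted p 0.150, 0.410 and 0.781). A further list of 12 SRF early response and cytoskeletal targets, with Actb, Cfl1 and Egr1 as its most abundant genes, had 0 of 11 tested genes called and a median of -0.08.

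Genes whose pattern over the 8 libraries was most like that of Acta2 were sought among 3723 genes with a mean of at least 50 CPM. Likeness was the root-mean-square difference of log2 CPM after centring each gene, where 0 is an identical pattern and the median over all candidates was 0.76. Creb3l1 (0.389), Itga6 (0.391), Mef2c (0.426), Tnni1 (0.484) and Nrp1 (0.493) were nearest. Creb3l1, a transcription factor anchored in the endoplasmic reticulum, had 74.0, 57.0, 37.8 and 23.6 CPM in the parental line and 65.5, 51.6, 64.3 and 48.7 CPM in the mutant line, highest in parental library 1 and lowest in parental library 4, as Acta2 was. Among the contractile genes the distance from Acta2 was 0.476 for Cnn2, 0.496 for Smtn, 0.533 for Tpm2, 0.676 for Cald1, 0.738 for Myl9, 0.935 for Tagln and 1.41 for Cnn1. The measure also grows with the size of the changes, and Cald1, which spanned 1.18-fold, came before Myl9. For Tagln the nearest were Flnc (0.536), Gorasp2 (0.573), Snw1 (0.577), Hpf1 (0.583) and Yaf2 (0.588) against a median of 0.804. Flnc encodes a muscle filamin and had its highest level, 114 CPM, in mutant library 4, where Tagln was also highest among the mutant cultures. With Tagln at 5 to 31 counts, its pattern carries a large counting error.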

How the data were processed

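RNA of 8 cultures was counted with QuantSeq, a 3′-end assay. The authors deposited whole-number counts per gene and library, not normalized or pooled. Per the submitters' processing notes, STAR and featureCounts and build mm10 were used, and the name of the deposited table gives the forward strand. Versions, annotation and duplicate removal are not given in the sources used here. Of 55487 gene identifiers 55141 had a symbol in the gene name table used, and gene coordinates are from GENCODE M21 (GRCm38). filterByExpr of edgeR 4.0.16 left 13280 genes, which were scaled by TMM and tested by the quasi-likelihood test (glmQLFit and glmQLFTest, line as the only term) in R 4.3.3, with Benjamini-Hochberg adjustment and a threshold of 0.05. The SE is the log2 fold change divided by the square root of its F statistic. Clopper-Pearson intervals and floors cover counting error only, and no molecular identifiers are mentioned; intervals of log2 fold changes come from the fit and include the spread between cultures. Depth, from 3803561 to 6293907 counts, limits genes near the floor of 3 counts. Groups came from the sample titles. Libraries within a line were compared by chi-square per degree of freedom (7.04 to 24.2 over 12 pairs), and no pair agreed within sampling noise.

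The members, lists and families were chosen with earlier results of these data known. Named genes were the members, Tbx1, the called genes and the 3 most abundant of each list. They also included the genes of the families (those without a value enter the denominators) and the 5 nearest patterns of Acta2 and Tagln. Other named genes were picked otherwise or after their values were seen. These were Srf, Actc1, Creb3l1 as the example, Myf5, Myog, the marker genes at 0, the genes overlapping Tagln, and Synpo2, Itga8, Lmod1 and Kcnmb1. Alternatives were RLE, upper-quartile and no scaling, other filters, DESeq2 1.42.0, limma-voom 3.58.1, robust empirical Bayes, a replicate block and leaving out each library. Promoters are from RefSeq (GRCm38.p6).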

Additional observations from a re-analysis of the deposited data

How the results depend on the processing

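The count of contractile genes called was 0 under 16 of 17 alternatives, all fits that left out 1 library included (range 0 to 0). Without a filter beyond 1 count it was 2, Acta2 (log2 fold change -0.46, adjusted p 0.00613) and Myl9 (-1.33, adjusted p 0.0012); the cause was not tested. Without parental library 1 the sign turned for Acta2 (0.161), Cnn2 (0.0574), Smtn (0.128) and Tpm2 (0.0944), whose ranges over the fits leaving out 1 library were -0.731 to 0.161, -0.365 to 0.0574, -0.387 to 0.128 and -0.214 to 0.0944, and the Acta2 share among actins turned too (0.589 percentage points, main value -0.789), whose range over the fits leaving out 1 library was -1.80 to 0.589. Over all genes 188 calls became 439 without the filter, 399 with DESeq2 and 103 to 235 when 1 library was left out. Tbx1 kept its direction and call in all 16 alternatives with an adjusted p, from -6.28 to -4.74; DESeq2 gave none for Tbx1 and Tagln. In the list of contraction and regulation genes the count of 1 became 0 with library size alone, 6 without the filter, 2 with DESeq2 and 0 to 4 on leaving out 1 library, and in the list around SRF the count of 1 became 0 with limma-voom, 3 without the filter or with DESeq2, and 0 to 1 on leaving out 1 library. For the 20 cardiomyocyte genes the count of 0 became 10 without the filter and 2 without parental library 4.

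Both lines use replicate numbers 1 to 4, and no pairing is stated. The deviations of same-numbered libraries from the means of their lines had correlations of 0.102, 0.0155, -0.0331 and 0.0284. Libraries of different number had -0.0783 to 0.0621, so the block stayed an alternative. With the replicate number as a block 0 contractile genes were called, 234 genes were called over all, and Tbx1 had a log2 fold change of -5.22. The block gave Acta2 -0.12 and Myl9 -1.28 (adjusted p 0.907 and 0.0869), and 6 cardiomyocyte genes, 3 genes of contraction and regulation and 2 around SRF were called, among them Ttn, Myl7, Tnnt2 and Myocd (adjusted p 0.0109, 0.0088, 0.00298 and 0.00342). Paired differences of the family shares had exact sign-flip p of 0.25 to 0.625. With 4 pairs this test cannot reach the threshold of 0.05, so it cannot decide whether a share differed.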
